A study of Ogataea parapolymorpha with 8 samples.

Results

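Upper glycolysis was followed as 7 genes of the thermotolerant yeast Ogataea parapolymorpha, from the kinases that phosphorylate glucose to triosephosphate isomerase. The genes were chosen by identifier, as steps of one pathway, out of the 5428 genes of the count table. They are HXK2 (OPAR_001050), GLK1/EMI2 (OPAR_003144), PGI1 (OPAR_003746), PFK1 (OPAR_001843), PFK2 (OPAR_003999), FBA1 (OPAR_002661) and TPI1 (OPAR_005347). Symbols are those of the closest homologs in Saccharomyces cerevisiae that the annotation gives, and OPAR_003144 carries both GLK1 and EMI2.

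Polyadenylated RNA of bioreactor cultures was sequenced in 8 libraries that form 4 groups of 2. Wild-type cells (strain CBS11895) were kept in chemostats diluted at 0.1 per h and held at pH 6, on a urea medium with pluronic acid as antifoam and 10 mg/L ergosterol. One wild-type group is labelled micro-aerobic and was fed 20 g/L glucose with 420 mg/L Tween 80. The other is labelled aerobic and was fed 7.5 g/L glucose with 84 mg/L Tween 80. Cells of the mutant strain, IMX2167, are labelled as lacking gut2 and ndi/nde, genes of mitochondrial glycerol-3-phosphate dehydrogenase and of type II NADH dehydrogenases. The mutant had air and 7.5 g/L glucose throughout: its batch cultures were held at pH 6, and its chemostat cultures, diluted at 0.1 per h, at pH 5. The labels name only 1 mutant strain, so a change of genotype cannot be told apart from other features of that strain. The medium of the mutant is given as SM medium and that of the wild type as SM urea medium. The labels give Tween 80, ergosterol and the antifoam for the wild-type cultures only.

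Glycolysis begins with the transfer of phosphate from ATP to glucose, and after an isomerization another ATP is spent by phosphofructokinase to make fructose 1,6-bisphosphate. Aldolase splits this sugar into dihydroxyacetone phosphate and glyceraldehyde 3-phosphate, which triosephosphate isomerase interconverts. The steps of the kinases are irreversible in the cell, whereas the isomerases and aldolase also work in the direction of glucose formation. Dihydroxyacetone phosphate is also the substrate of cytosolic glycerol-3-phosphate dehydrogenase, which re-oxidizes NADH, and the series title names the re-oxidation of cytosolic NADH as its subject.

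Library totals ran from 6104949 to 11126081 counts in genes, so that 3 counts correspond to 0.270 to 0.491 CPM (each library's counts scaled to a common size, with TMM factors). The lowest count of any of the 7 genes in any library was 679, and all 7 passed the filter on low counts that kept 5265 genes. GUT2 (OPAR_001648) was at 393 and 381 CPM in the libraries labelled aerobic, at 357 and 339.5 in those labelled micro-aerobic, at 111 and 94.8 in the mutant batch and at 29.8 and 27.3 in the mutant chemostat. GUT2 was thus lower in the strain labelled as lacking it, but counts remained, more in batch than in the chemostat. What the remaining counts come from was not tested. The labels do not say which bases were deleted. NDE1 (OPAR_004935) lay between 49.7 and 72.1 CPM in the wild type. In the mutant it was at 5.34 and 4.55 CPM in batch and at 0.492 and 0.531 CPM in the chemostat. Of the 5265 genes tested, 22.3% were lower (edgeR adjusted p below 0.05) in the libraries labelled micro-aerobic than in those labelled aerobic. All 6 genes of a list of oxygen and sterol genes were in that share. Among them HEM13, which in S. cerevisiae is known to be higher at low oxygen, was at 1202 and 1095 CPM under the aerobic label and between 56.4 and 138 CPM in the other 6 libraries. Directions between the wild-type groups therefore rest on the labels, and each would turn if the labels had been exchanged. Comparisons of the mutant with either wild-type group, and of the changes within the strains, rest on the same labels.

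The 7 genes lie on 6 chromosomes of the deposited annotation of strain DL-1, each as a single exon that overlaps no other annotated gene. HXK2, a hexokinase, lies on the minus strand of chromosome 2 from 744420 to 745871, and GLK1/EMI2, a glucokinase, on the plus strand of chromosome 5 from 653621 to 655134. PGI1, which turns glucose 6-phosphate into fructose 6-phosphate, lies on the minus strand of chromosome 6 from 272612 to 274345. The phosphofructokinase alpha subunit PFK1 lies on the plus strand of chromosome 3 from 1084338 to 1087583. The beta subunit PFK2 lies on the minus strand of chromosome 6 from 693943 to 696780. FBA1, the aldolase, lies on the plus strand of chromosome 4 from 1134949 to 1136053, and TPI1 on the minus strand of chromosome 7 from 1413520 to 1414356. The annotation gives a hexokinase domain to 3 genes, of which HXK2 and GLK1/EMI2 are 2. The other, OPAR_003464, has no homolog named and lay between 2.21 and 14.1 CPM. A phosphofructokinase domain is given to PFK1 and PFK2 only, and the domains of the isomerase, the aldolase and triosephosphate isomerase to 1 gene each.

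Per kilobase of gene length, the triose end of the pathway gave the most RNA and phosphofructokinase the least. In the wild type labelled aerobic the mean level was 6338 ± 162 RPKM (CPM per kilobase of the gene; SD, n = 2) for FBA1 and 5357 ± 1112 for TPI1. GLK1/EMI2 followed at 3017 ± 198 RPKM, PGI1 at 1738 ± 189.6 and HXK2 at 1278 ± 239.7. PFK1 was at 271 ± 25.2 RPKM and PFK2 at 185 ± 12.3. FBA1 and TPI1 were the highest and the PFK genes the lowest in all 4 groups, with HXK2 next above them in each. Neighbours in that order whose difference was within their spread were FBA1 and TPI1 under the aerobic label and PFK1 and PFK2 in both the micro-aerobic and the mutant chemostat libraries. PGI1, at 432 ± 22.7 RPKM, stood above GLK1/EMI2, at 375 ± 7.08, under the micro-aerobic label, and below it in the other 3 groups. Summed over the 7 genes, the level was 18183 ± 1864 RPKM under the aerobic label and 14079 ± 68.8 in the mutant batch. It was 4567 ± 7.28 RPKM under the micro-aerobic label and 4759 ± 445 in the mutant chemostat.

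**Figure D1:**
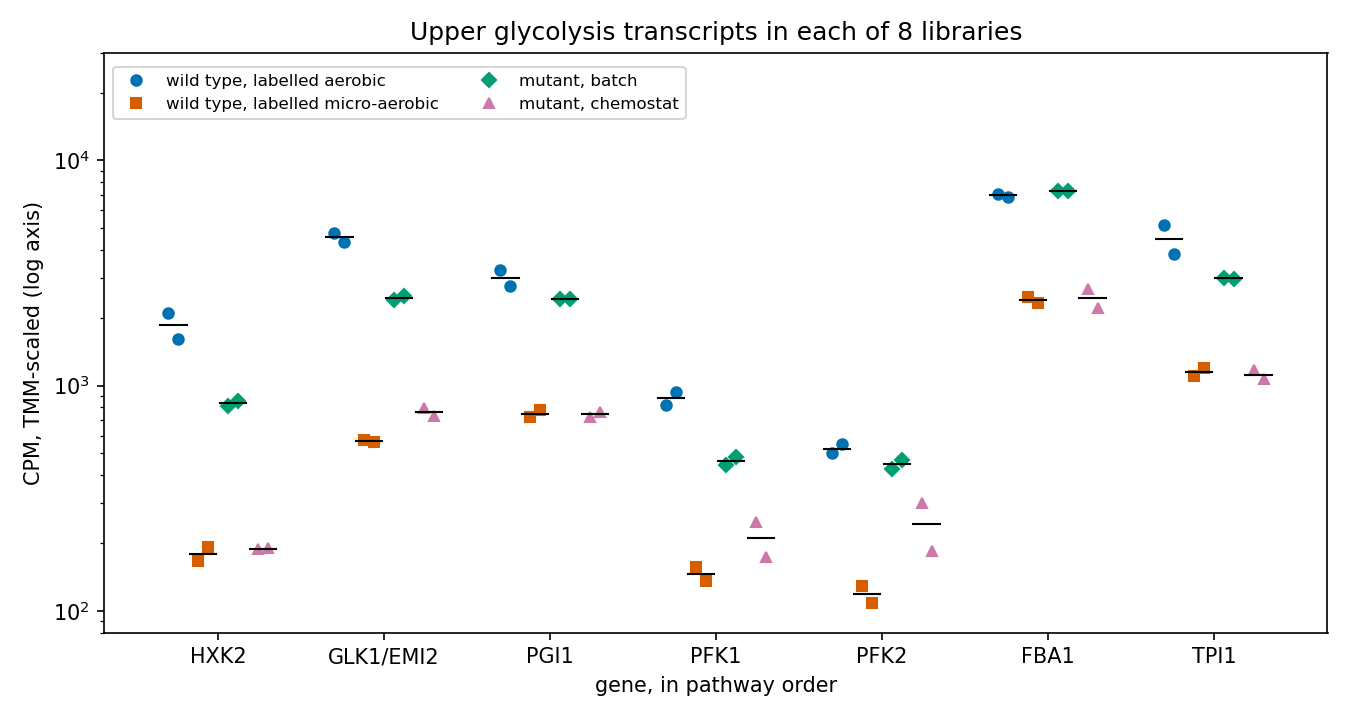
CPM of the 7 genes in each of the 8 libraries, with genes in pathway order on the x axis and CPM on a log y axis. Each gene has a point for each library, coloured by group, and a line for each group mean. For every gene the points of the aerobic label and of the mutant batch stand above those of the micro-aerobic label and of the mutant chemostat.

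The wild-type chemostats were compared by their label of micro-aerobic or aerobic. All 7 genes were lower under the micro-aerobic label (7 called lower of 7, against 22.3% of the 5265 genes tested), where called means an adjusted p below 0.05 by the quasi-likelihood test of edgeR, adjusted after Benjamini and Hochberg. Their median log2 change was -2.15, beside 0.02 over all genes tested. The fall was largest for the glucose kinases, at 10.4-fold and 8.04-fold, and smallest for the aldolase gene, at 2.91-fold. Glucose feed, Tween 80 and the code in the sample titles differ together with the oxygen label, so their parts cannot be told apart. The 6 oxygen and sterol genes given above fell in the same comparison, by log2 changes from -7.92 (ERG25) to -0.47 (OLE1), and their part in the result was not tested. Where groups are said not to overlap, here and below, this describes the 2 libraries of each and is no test. The share of all genes without overlap was not counted. Groups also lay apart without a call, as for FBA1 between the mutant batch and the aerobic label (log2 change 0.06, edgeR adjusted p = 0.755).

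HXK2, which in S. cerevisiae is also a regulator of glucose repression, was at 2102 and 1609.9 CPM under the aerobic label and at 166 and 191 CPM under the micro-aerobic label. It was the gene with the widest gap, and no library of either group came near the other. The log2 change was -3.38 ± 0.17 (SE; edgeR adjusted p = 1.1e-09), which is larger in size than the change of 97.6% of the genes tested.

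GLK1/EMI2 was at 4779.5 and 4356 CPM under the aerobic label and at 576 and 561 CPM under the micro-aerobic label. Replicates of this glucokinase gene lay close together and the groups did not overlap. The log2 change was -3.01 ± 0.15 (edgeR adjusted p = 9.9e-10).

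PGI1 was at 3246 and 2781 CPM under the aerobic label and at 722 and 778 CPM under the micro-aerobic label, again without overlap. Its log2 change of -2.01 ± 0.14 (edgeR adjusted p = 5.8e-08) was smaller than that of either glucose kinase.

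The subunits of phosphofructokinase, the enzyme at which yeast glycolysis is controlled by ATP, AMP and fructose 2,6-bisphosphate, were both lower as well. PFK1 was at 821 and 937 CPM under the aerobic label and at 157 and 136 CPM under the micro-aerobic label. PFK2 was at 501 and 550.2 CPM in the former and at 129 and 108 CPM in the latter. Neither gene overlapped between the groups. The log2 change was -2.59 ± 0.18 for PFK1 (edgeR adjusted p = 3.9e-08) and -2.15 ± 0.20 for PFK2 (edgeR adjusted p = 9.8e-07).

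FBA1, the most highly expressed of the 7 per length, was at 7129.6 and 6876 CPM under the aerobic label and at 2486 and 2321 CPM under the micro-aerobic label. TPI1 was at 5142 and 3825 CPM in the former and at 1102 and 1197 CPM in the latter. TPI1 and HXK2 were the genes whose aerobic-labelled replicates lay farthest apart, yet the lower replicate of each still stood above both micro-aerobic libraries. The log2 change was -1.54 ± 0.15 for FBA1 (edgeR adjusted p = 1.7e-06) and -1.96 ± 0.16 for TPI1 (edgeR adjusted p = 3.2e-07).

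The mutant in aerobic batch was compared with the same strain in an aerobic chemostat. All 7 genes were higher in batch (7 called higher of 7, against 24.5% of the genes tested), with a median log2 change of 1.58 beside -0.02 over all genes. The rise was largest for HXK2, at 4.42-fold, and smallest for PFK2, at 1.85-fold. Mode of growth and pH differ together between these groups and cannot be told apart.

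HXK2 was at 816 and 855 CPM in batch and at 187 and 190.0 CPM in the chemostat, and its log2 change was 2.15 ± 0.16 (edgeR adjusted p = 1.1e-07). GLK1/EMI2 was at 2409 and 2487 CPM in batch and at 792 and 731 CPM in the chemostat, a log2 change of 1.68 ± 0.14 (edgeR adjusted p = 3.6e-07). For both glucose kinases the replicates lay close and the groups far apart. PGI1 was at 2422 and 2435 CPM in batch and at 728 and 761 CPM in the chemostat, a log2 change of 1.71 ± 0.14 (edgeR adjusted p = 4.0e-07). The changes of the isomerase gene and the glucokinase gene differed by less than their standard errors.

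The phosphofructokinase genes were the least uniform. PFK1 was at 444 and 481 CPM in batch and at 248 and 172 CPM in the chemostat. PFK2 was at 427 and 468 CPM in batch and at 300.1 and 185 CPM in the chemostat. The second chemostat library was below the first for both subunits, by a log2 difference of -0.70 for PFK2, and both libraries stayed below the batch. The log2 change was 1.14 ± 0.17 for PFK1 (edgeR adjusted p = 9.4e-05) and 0.89 ± 0.19 for PFK2 (edgeR adjusted p = 0.00162). Without the second chemostat library the change of PFK2 was 0.58 (edgeR adjusted p = 0.00805), and without the first it was 1.28.

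FBA1 was at 7291 and 7324 CPM in batch and at 2675 and 2206 CPM in the chemostat, a log2 change of 1.58 ± 0.15 (edgeR adjusted p = 1.6e-06). TPI1 was at 3009.6 and 2972 CPM in batch and at 1171 and 1069 CPM in the chemostat, a log2 change of 1.42 ± 0.16 (edgeR adjusted p = 8.9e-06). Neither gene overlapped between the groups.

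The size of the changes within the strains was then set against each other, as the log2 change from the micro-aerobic to the aerobic label in the wild type minus that from chemostat to batch in the mutant. These changes share no library, but they come from different manipulations. The difference passed the test for 4 of the 7 genes, all with the larger change in the wild type (against 17.9% of the genes tested called in that direction). It was 1.23 ± 0.22 for HXK2 (edgeR adjusted p = 5.7e-04) and 1.32 ± 0.19 for GLK1/EMI2 (edgeR adjusted p = 1.3e-04). For the phosphofructokinase subunits it was 1.45 ± 0.24 for PFK1 (edgeR adjusted p = 3.7e-04) and 1.26 ± 0.27 for PFK2 (edgeR adjusted p = 0.00257). The genes of the reversible steps did not pass, with 0.30 ± 0.20 for PGI1 (edgeR adjusted p = 0.255), -0.04 ± 0.21 for FBA1 (edgeR adjusted p = 0.905) and 0.55 ± 0.22 for TPI1 (edgeR adjusted p = 0.0758). That the called genes are the 4 kinase genes was seen after the values were known, and the grouping has no test of its own. TPI1 is near the threshold, since its adjusted p was 0.0395 with DESeq2 and 0.00528 without the second library labelled aerobic.

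**Figure D2:**
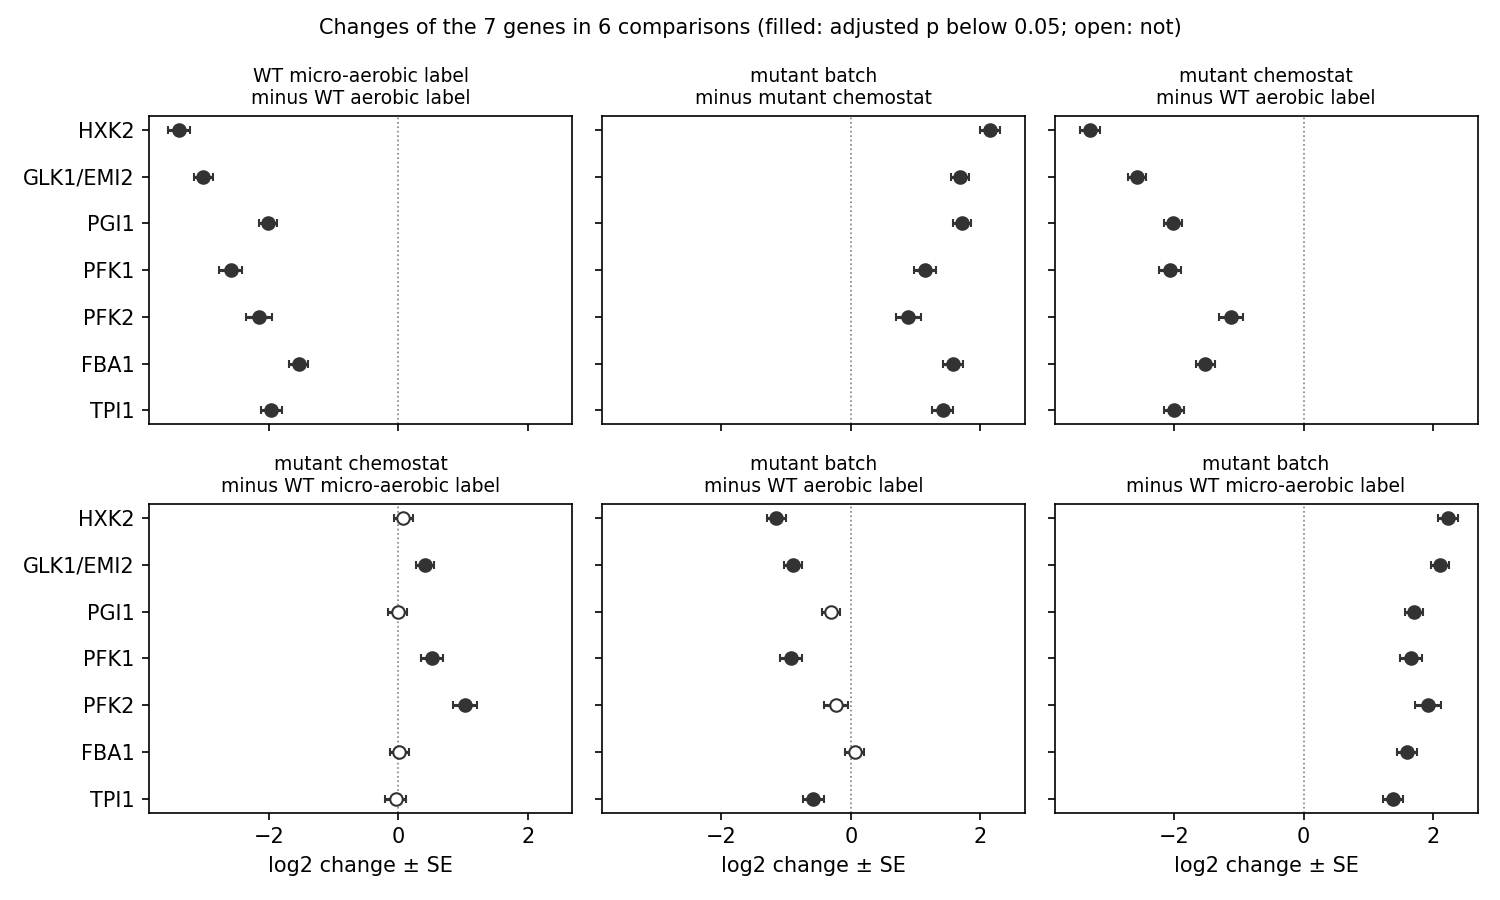
Log2 change ± SE of each of the 7 genes in the 6 comparisons between groups, with filled points for an adjusted p below 0.05 and open points otherwise. The points lie below 0 for the micro-aerobic label against the aerobic label and above 0 for batch against chemostat for all 7 genes. For the mutant chemostat against the micro-aerobic label they run from -0.04 to 1.03.

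Comparisons across strains differ in genotype, in the medium and in the additives named above. Those with the group labelled micro-aerobic also differ in the glucose concentration and the oxygen label, and some differ in pH or in the mode of growth. The part of each cannot be told apart. They share groups with the comparisons already given.

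The mutant chemostat had less RNA of all 7 genes than the wild-type chemostat labelled aerobic, which was fed the same glucose concentration (7 called lower of 7, against 29.4% of the genes tested). The log2 change ran from -3.30 ± 0.16 for HXK2 to -1.12 ± 0.19 for PFK2, with a median of -2.02 beside 0.03 over all genes. PFK2 was the gene with the smallest gap, at 501 and 550.2 CPM against 300.1 and 185 CPM (edgeR adjusted p = 2.2e-04). The pH of these chemostats was 5 for the mutant and 6 for the wild type.

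The mutant chemostat was set against the wild-type chemostat labelled micro-aerobic, and 3 genes were called higher in the mutant while 4 did not pass (against 13.7% of the genes tested called higher). HXK2 differed by 0.08 ± 0.15 on the log2 scale, PGI1 by -0.01 ± 0.14, FBA1 by 0.02 ± 0.15 and TPI1 by -0.04 ± 0.16, with edgeR adjusted p from 0.721 to 0.962 and overlapping libraries for each. A p of this size does not show that the levels were equal. PFK2 was higher by 1.03 ± 0.19 (edgeR adjusted p = 0.00264), with 300.1 and 185 CPM in the mutant against 129 and 108. PFK1 was higher by 0.52 ± 0.17 (edgeR adjusted p = 0.0374) and GLK1/EMI2 by 0.42 ± 0.14 (edgeR adjusted p = 0.0357). The calls were not stable. PFK1 was lost when only the 4 libraries compared were fitted (0.51, edgeR adjusted p = 0.0620). The count of genes called fell to 0 without the second library labelled micro-aerobic, and to 1 without the first of that label, the first of the mutant chemostat or either batch library. Without the first mutant chemostat library the difference was 0.64 for PFK2, which still passed, and 0.24 for PFK1, which did not (edgeR adjusted p = 0.339).

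The mutant batch was lower than the wild type labelled aerobic for 4 genes (against 24.2% of the genes tested). HXK2 was lower by a log2 change of -1.15 ± 0.15 (edgeR adjusted p = 3.2e-05), PFK1 by -0.93 ± 0.17 (edgeR adjusted p = 4.7e-04) and GLK1/EMI2 by -0.90 ± 0.14 (edgeR adjusted p = 1.1e-04). TPI1 differed by -0.58 ± 0.16 (edgeR adjusted p = 0.00786), a call lost without either batch library (adjusted p of 0.0560 and 0.0667) and a change of -0.33 without the first library labelled aerobic (edgeR adjusted p = 0.0480). PGI1 at -0.31 ± 0.14 (edgeR adjusted p = 0.0779) and PFK2 at -0.23 ± 0.19 (edgeR adjusted p = 0.330) did not pass. DESeq2 called PGI1 (adjusted p = 0.0404), as did the fit without the second library labelled aerobic (edgeR adjusted p = 0.0167). FBA1 differed by 0.06 ± 0.15 (edgeR adjusted p = 0.755), and its batch libraries, at 7291 and 7324 CPM, stood just above the aerobic-labelled ones at 7129.6 and 6876 CPM.

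Against the wild type labelled micro-aerobic the mutant batch had more RNA of all 7 genes (7 called higher of 7, against 22.2% of the genes tested). The log2 change ran from 1.38 ± 0.16 for TPI1 to 2.23 ± 0.16 for HXK2, and its median was 1.70 beside -0.02 over all genes.

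Ratios between genes of the same or of successive steps, taken per length within each library, do not depend on the scaling of libraries. They are given without a test, as each group has 2 libraries. The ratio of PFK1 to PFK2, the subunits of one enzyme, was 1.43 and 1.49 under the aerobic label and 1.06 and 1.09 under the micro-aerobic label. It was 0.909 and 0.898 in the mutant batch and 0.723 and 0.815 in the mutant chemostat. The groups did not overlap, and PFK1 stood above PFK2 in the wild-type libraries and below it in those of the mutant. The ratio of GLK1/EMI2 to HXK2 was lowest under the aerobic label, at 2.39 ± 0.293 (SD, n = 2), and highest in the mutant chemostat, at 3.87 ± 0.258. It was 3.07 ± 0.371 under the micro-aerobic label and 2.81 ± 0.0284 in batch, and these groups overlapped. The ratio of FBA1 to TPI1 was 1.21 ± 0.220 under the aerobic label, below the libraries of all other groups, and between 1.59 and 1.85 on average in those.

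**Figure D3:**
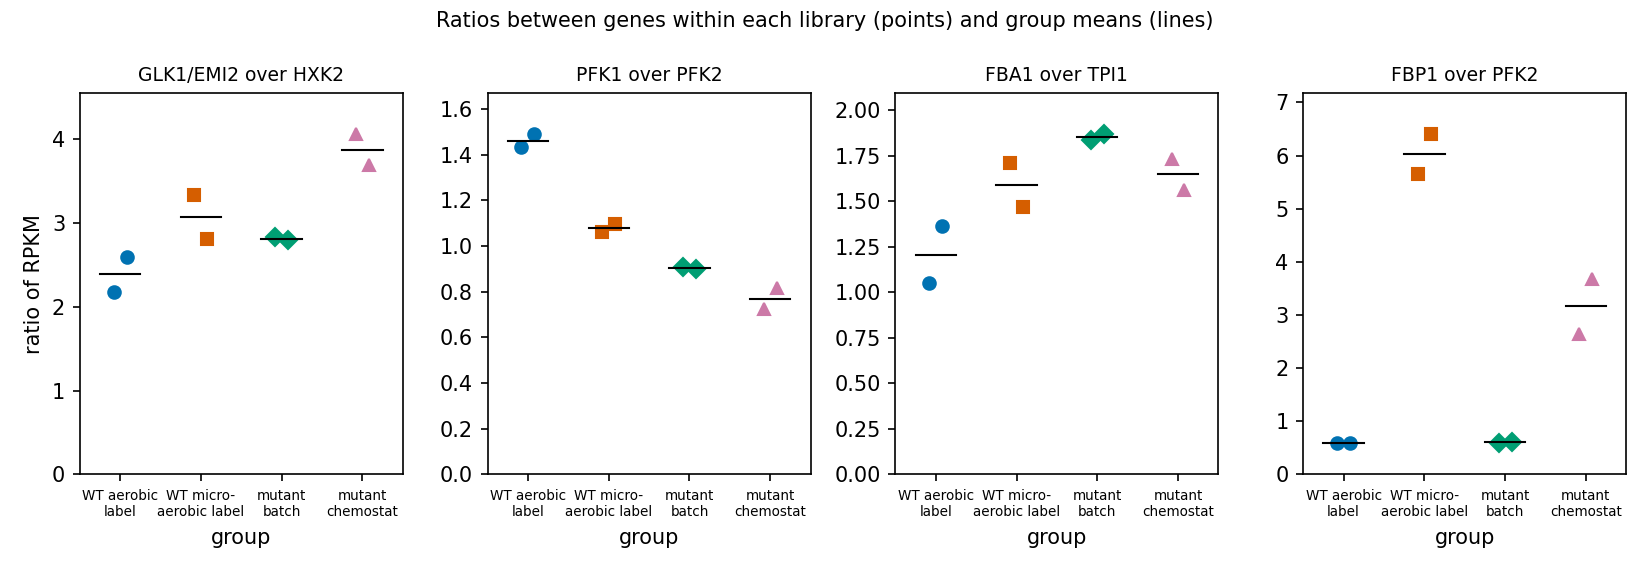
Ratios of RPKM between genes in each library, with the group on the x axis, the ratio on a linear y axis from 0, a point per library and a line for the group mean. The ratio of PFK1 to PFK2 falls from 1.46 under the aerobic label to 0.769 in the mutant chemostat, and that of FBP1 to PFK2 is high in both the micro-aerobic and the mutant chemostat libraries.

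The reverse of the phosphofructokinase step is catalysed by fructose-1,6-bisphosphatase, the product of FBP1, and both enzymes are set by fructose 2,6-bisphosphate, which PFK26 and PFK27 make and FBP26 removes. FBP1 was at 106 and 117 CPM under the aerobic label and at 262 and 249 CPM under the micro-aerobic label, and at 91.5 and 103 CPM in batch and 285 and 245 CPM in the mutant chemostat. Its direction was thus opposite to that of the 7 genes in both comparisons within a strain, with log2 changes of 1.20 ± 0.14 (edgeR adjusted p = 8.6e-06) and -1.45 ± 0.14 (edgeR adjusted p = 1.5e-06). Per length, the ratio of FBP1 to PFK2 was 0.589 ± 0.00126 under the aerobic label and 0.604 ± 0.0112 in batch, against 6.02 ± 0.533 under the micro-aerobic label and 3.16 ± 0.739 in the mutant chemostat. FBP26 followed FBP1, with log2 changes of 0.86 and -1.42, both called. PFK27 changed with the 7 genes, at -0.49 and 0.70, both called. PFK26 was called in the mutant only, at 1.28, and was at -0.22 ± 0.16 between the wild-type groups (edgeR adjusted p = 0.289). The difference between these changes passed for PFK26, at -1.06 ± 0.23 (edgeR adjusted p = 0.00241).

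Of the lower glycolytic genes listed, 5 were matched by homolog, and all 5 were lower under the micro-aerobic label and higher in batch than in the mutant chemostat. Of all genes tested, 22.3% were lower in the former comparison and 24.5% higher in the latter. The median log2 change of the 5 was -1.91 and 1.94, respectively. The phosphoglycerate mutase gene GPM1 had the largest fall between the wild-type groups, at -2.60 ± 0.18, and the glyceraldehyde-3-phosphate dehydrogenase gene TDH2 the smallest, at -0.65 ± 0.15. The enolase gene ENO2 was at -2.21, the pyruvate kinase gene CDC19 at -1.91 and the phosphoglycerate kinase gene PGK1 at -1.76. In the difference between strains, 1 of the 5 passed with the larger change in the wild type, against 17.9% of the genes tested. This was PGK1, at 0.58 ± 0.21 (edgeR adjusted p = 0.0488). CDC19, of an irreversible step, did not pass, at -0.28 ± 0.21 (edgeR adjusted p = 0.335).

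The genes that draw on the hexose phosphates were mixed. Of 11 matched, 4 were higher and 3 lower under the micro-aerobic label, against 23.2% and 22.3% of the genes tested. In batch 7 were higher and 1 lower than in the mutant chemostat, against 24.5% and 26.8%. The higher ones under the micro-aerobic label were ZWF1, the glucose-6-phosphate dehydrogenase that opens the pentose phosphate pathway, at 1.32, SOL3 at 0.89, GND1 at 0.79 and TKL1 at 0.78. TKL1 overlaps another annotated gene and its counts could hold reads of it. The lower ones were the trehalose genes TPS2, at -0.86, and TPS1, at -0.69, and UGP1, which makes UDP-glucose, at -0.72. Of these named genes, TKL1 (1.04), SOL3 (0.91), TPS2 (0.79), GND1 (0.73) and TPS1 (0.49) were called higher in batch than in the mutant chemostat. ZWF1 (0.15) and UGP1 (-0.08) did not pass there. At the triose end, the glycerol-3-phosphate dehydrogenase gene GPD1/GPD2 was higher by 0.64 ± 0.14 under the micro-aerobic label (edgeR adjusted p = 0.00183). It was at 0.13 ± 0.13 in batch against the mutant chemostat (edgeR adjusted p = 0.427).

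Of 6 matched genes of glucose uptake and signalling, 3 were higher and 1 lower under the micro-aerobic label, and 1 was higher and 4 lower in batch than in the mutant chemostat. Of all genes tested, 23.2% were higher and 22.3% lower in the former comparison, and 24.5% and 26.8% in the latter. The gene lower in the former and higher in the latter was HXT2, a hexose transporter, at 8788 and 7393 CPM under the aerobic label and 157 and 148 under the micro-aerobic label. HXT2 was at 4651 and 4672 CPM in batch and at 120.0 and 106 CPM in the mutant chemostat, so it stood high in the same groups as the 7 genes. Its log2 changes were -5.73 ± 0.18 and 5.36 ± 0.18. STD1 (1.58 and -1.67), RGT2 (1.23 and -1.55), a glucose sensor in S. cerevisiae, and SNF1 (0.75 and -1.22), the kinase that acts when glucose is low, were called in the opposite directions. The homolog names of the annotation did not match MIG1, SNF3, GCR1, GCR2 or TYE7, regulators of glucose repression, sensing and glycolytic genes in S. cerevisiae, and these were not analysed here.

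**Figure D4:**
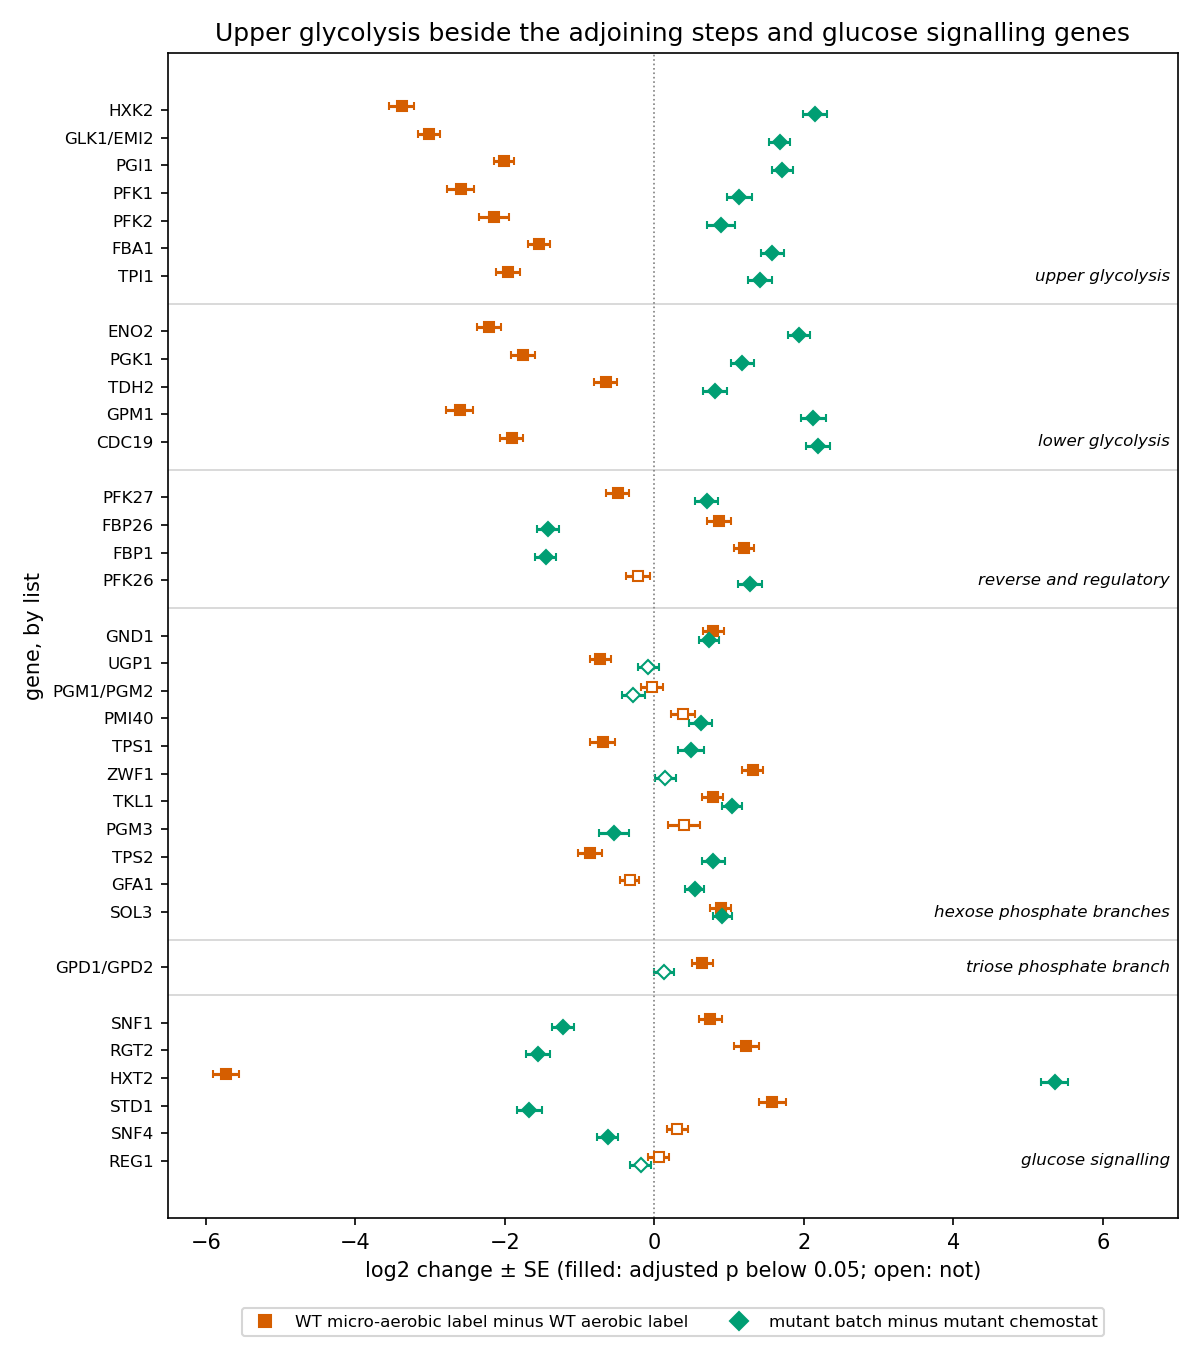
Log2 change ± SE of the 7 genes and of the genes of the adjoining lists, for the micro-aerobic against the aerobic label in the wild type (squares) and for batch against chemostat in the mutant (diamonds), with open symbols where the adjusted p was not below 0.05. The 7 genes and the 5 lower glycolytic genes have squares left of 0 and diamonds right of 0, and FBP1, FBP26, STD1, RGT2 and SNF1 the reverse.

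Likeness to the mean profile of the 7 genes over the 4 group means was measured as the root mean square difference of centred log2 levels, over 5072 genes above a CPM minimum of 10 in a group. The median of that difference was 1.04 over the ranked genes, and it ran from 0.146 for PGI1 to 0.458 for HXK2 among the 7 genes themselves. Each of the 7 is part of the mean profile, which by itself brings it nearer than a gene outside the set. The nearest other gene was OPAR_003405, whose homolog is the pyruvate decarboxylase gene PDC5, at 0.123. ERG2 (OPAR_003997), a sterol isomerase gene, followed at 0.151, then OPAR_003996 at 0.155, ENO2 (OPAR_000675) at 0.168 and OPAR_004500 at 0.208. Of the lower glycolytic genes, ENO2 ranked 4, PGK1 10, GPM1 14, CDC19 32 and TDH2 419. ERG2 and OPAR_003996 lie on chromosome 6, 1043 and 3090 bases from PFK2. The gene next to PFK2, OPAR_003998, lies between and was not called, with log2 changes of -0.24 and -0.03.

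Of 14 genes that flank the 7 on either side, 3 were called in the direction of their neighbour and 3 in the opposite one between the wild-type groups. Between batch and chemostat 4 were called in each. These shares are near those of all genes tested, of which 22.3% to 26.8% were called in each direction of these comparisons. OPAR_003145, singled out after its values were seen, abuts GLK1/EMI2 and was at 27.7 and 30.8 CPM under the aerobic label and at 207 and 228 CPM under the micro-aerobic label. It rose where GLK1/EMI2 fell, with log2 changes of 2.89 and -3.41 in the comparisons within the strains. MTD1, on the other side of GLK1/EMI2, changed in the direction of GLK1/EMI2, at -0.92 and 2.01.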

How the data were processed

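Read pairs per gene were deposited by the authors as raw counts. Per the file headers, featureCounts counted gene features from pairs that were mapped at both ends and not chimeric, without a strand option. Tools named in the submitters' processing notes are featureCounts 1.6.0, Bowtie 1.2.1.1, SAMtools 1.3.1 and edgeR 3.28.1, with no parameters. Coordinates are those of the deposited annotation of strain DL-1, and no further build name is given in the sources used here. Columns of 4 other libraries were left out. Of the authors' deposited comparison tables only the homolog names were read, which exist for 3250 genes.

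Libraries were grouped by label. The series text speaks of 2 biological replicates and not of how they were grown, so p-values reflect the spread between these libraries, which may be technical in part. edgeR 4.0.16 (R 4.3.3) was run on all 8 libraries in one model with group means, after filterByExpr (5265 of 5428 genes) and TMM scaling. The quasi-likelihood F test was two-sided, with Benjamini-Hochberg adjustment over all genes tested and a threshold of 0.05. The biological coefficient of variation was 0.118, on 4 residual degrees of freedom. CPM used TMM-scaled library sizes, and RPKM also the gene length. The fit was first run on simulated counts with the same coefficient of variation for every gene. These libraries are less uniform, so that run does not measure the error rate here. No replicate pair was within sampling noise: chi-square per degree of freedom was between 5.08 (mutant batch) and 37.6 (mutant chemostat). Floors of 3 counts cover counting error only.

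The 7 genes, the gene lists and the comparisons were chosen with earlier results of these data known. Named were the 7 genes, the targeted genes, the reverse and regulatory genes in full, up to 4 called members of each other list with the largest change, and the 5 genes nearest in profile. TDH2, TKL1, TPS1, UGP1, OPAR_003464 and the flanking genes were named after their values were seen. Alternatives were other scalings (relative log expression, upper quartile, library totals), no filter, DESeq2 1.42.0, a fit of the compared libraries alone, a replicate block and leaving out each library.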

Additional observations from a re-analysis of the deposited data

How the results depend on the processing

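No called change of the 7 genes changed sign under the alternatives run. Of the changes that did not pass, those of HXK2, PGI1, FBA1 and TPI1 between the mutant chemostat and the micro-aerobic label took either sign, as did that of FBA1 in the difference between strains (-0.19 to 0.12). All 7 were called lower under the micro-aerobic label and higher in batch than in the mutant chemostat under every scaling, filter, test and left-out library. The 3 genes called higher in the mutant chemostat than under the micro-aerobic label became 0 to 3 when single libraries were left out, and the 11 genes of the adjoining lists called there became 0 to 13. Over all genes that comparison had 722 higher and 703 lower calls, and 135 and 145 without the second library labelled micro-aerobic. With library totals alone the summed level was 16292.4 RPKM under the aerobic label, 4574.67 under the micro-aerobic label, 14328.5 in batch and 5191.61 in the mutant chemostat. In the mutant chemostat against the aerobic label the median log2 change of all genes was 0.03, and it was 0.31 with library totals and 0.21 with upper quartile scaling. The calls there were 1648 higher and 1547 lower, and 2302 and 950 with library totals. The numbers in the mutant's titles were not shown to pair libraries (correlation of deviations -0.235, 2 pairs). With a replicate block 7 genes stayed called higher in batch and 4 in the difference between strains, and the same counts came with the numbers crossed, a setting chosen after seeing the data; over all genes the block gave 1231 higher and 1338 lower calls and the crossed block 1361 and 1445. At 2 libraries a group, small differences such as those of PGI1 and TPI1 between the mutant batch and the aerobic label sit near the threshold.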
